A study of Mus musculus with 25 samples.

Results

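Cathepsins and legumain are proteases of the endolysosome, and 10 of their genes were followed here in mouse melanomas treated with an antibody against CTLA-4: Ctsb, Ctsc, Ctsd, Ctsh, Ctsk, Ctsl, Ctss, Ctsz, Ctsw and Lgmn. The genes were taken from the deposited count table by symbol. All 10 were found among the 55450 genes of the table. All 10 also passed a filter on low counts that left 18031 genes for testing, and the lowest count of any of them in any tumour was 41.

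The tumours were grown from B2905, a mouse melanoma cell line also called M4, in C57BL/6 mice, and each library holds the bulk RNA of 1 tumour. Of 40 implanted mice, 30 were given the anti-CTLA-4 antibody and 5 an isotype control antibody, IgG2b, each at 10 mg/kg, 2 doses a week for 2 weeks, starting at a mean tumour volume of 75 mm3. CTLA-4 is a receptor that restrains T cells. Of the 30 mice under anti-CTLA-4, the tumours of 20 were sequenced, so the group sizes are not the outcome split of the whole arm. These tumours were sorted by growth over the 10 to 11 days after the last dose. They were 6 non-responders, which kept growing, 6 stable tumours and 8 responders, which shrank. The 5 IgG2b tumours are called controls. All 4 groups share the cell line and the host strain. A single cell line bounds what the groups can stand for, and in bulk RNA fewer cells of a type and less RNA per cell cannot be told apart.

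Lysosomal cathepsins are made as inactive precursors and are activated by removal of a propeptide in the acidic compartment. Ctsb, Ctsc, Ctsh, Ctsk, Ctsl, Ctss, Ctsz and Ctsw belong to the papain family of cysteine proteases, Ctsd is an aspartic protease, and Lgmn cuts after asparagine and also processes other cathepsins. In macrophages and dendritic cells several of these enzymes degrade ingested protein, and some trim the invariant chain from MHC class II molecules. Cystatins are the main natural inhibitors of the cysteine proteases among them.

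The libraries held 8.76 to 34.3 M counts each. Protein-coding genes took 82.9% to 89.2% of the counts in the 17 control, non-responder and stable libraries, 87.0% in responder 5, and 23.8% to 74.3% in the other 7 responders. The labels number the libraries group by group, so an effect of processing order cannot be told apart from group. The labelled melanoma identity was checked on 8 melanocyte and melanoma genes. Their summed level was 13501 to 19768 CPM (counts per M of the scaled library) in controls and 1021 to 15005 CPM in non-responders, but 628 to 834 CPM in stable tumours and 507 to 888 CPM in responders. The non-responders were mixed: 1 to 3 were at 5410, 8100 and 15005 CPM, and 4 to 6 at 1557, 1082 and 1021 CPM. Mlana, Slc45a2 and Tyr were at 0 in at least 1 responder.

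By group means, the transcripts fell into different orders of abundance in controls, non-responders and the other tumours, with 1 order of all 10 shared by stable tumours and responders. On the authors' deposited RPKM scale, which divides by gene length and so allows genes to be compared, Ctsd (425 ± 39.5, SD, n = 5) and Ctsb (351 ± 56.1) led in controls. Their means lay closer together than the sum of their SDs. Ctsz (94.3 ± 9.16), Lgmn (87.6 ± 14.2), Ctss (72.6 ± 28.1) and Ctsl (66.4 ± 10.4) formed a middle tier in which no neighbours were further apart than their SDs. Ctsh (22.3 ± 7.95), Ctsc (20.1 ± 3.70), Ctsk (11.5 ± 2.33) and Ctsw (1.53 ± 0.555) were lowest. In stable tumours Ctss came first, with 1084 ± 408 RPKM (SD, n = 6) against 553 ± 167 for Ctsd and 280 ± 59.1 for Ctsb. Responders had the same leading order, with 736 ± 370, 355 ± 136 and 177 ± 66.1 RPKM (SD, n = 8). In non-responders the means of Ctsd (334 ± 113) and Ctss (331 ± 339, SD, n = 6) were level, with a spread for Ctss as large as its mean. The medians were 304 for Ctsd, 242 for Ctsb and 212 for Ctss, and non-responder 6 had 980 RPKM of Ctss. Ctsw had the lowest mean of the 10 in every group. By median it was beside Ctsk in responders, at 18.85 against 18.76.

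**Figure D1:**
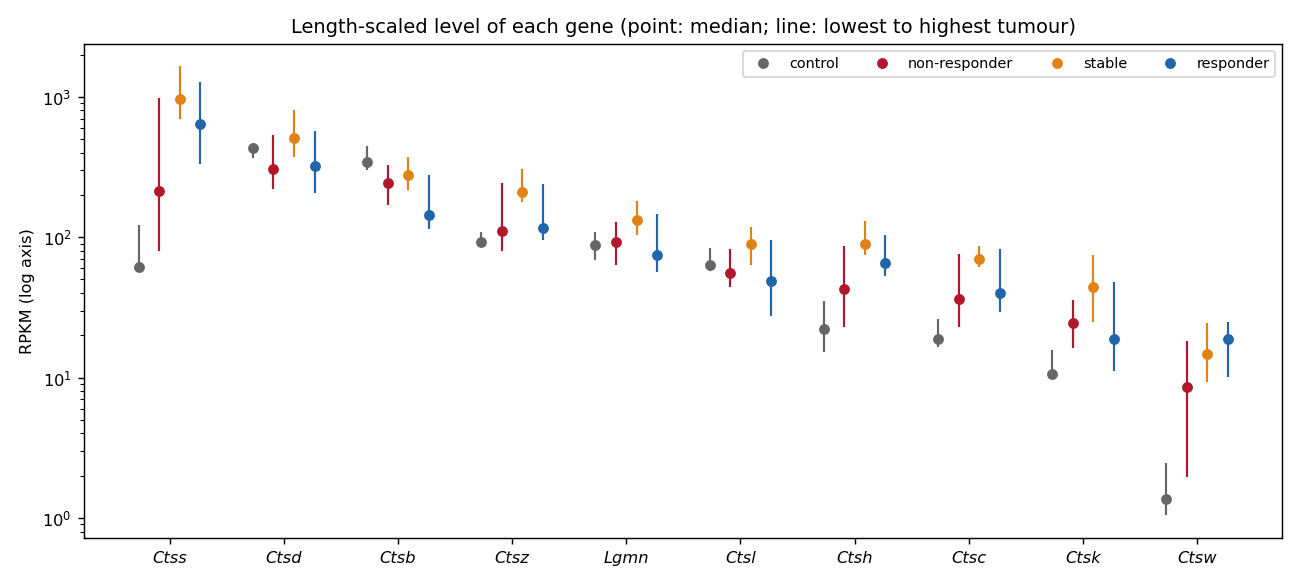
RPKM of each gene on a log axis by group, with a point at the group's median and a line from its lowest to its highest tumour (5 controls, 6 non-responders, 6 stable tumours, 8 responders). Ctss moves from the middle tier in controls (mean 72.6) to the highest level in stable tumours (mean 1084) and responders (mean 736). Ctsw has the lowest median in controls, non-responders and stable tumours, and in responders its median (18.85) is beside that of Ctsk (18.76).

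Against controls, 5 of the 10 genes rose in responders (Ctss, Ctsw, Ctsh, Ctsc and Ctsk) and Ctsb fell. In stable tumours 7 rose, these 5 with Ctsz and Lgmn, and none fell. In non-responders 4 rose (Ctss, Ctsw, Ctsh and Ctsc). A gene is said to rise or fall where edgeR's quasi-likelihood test over all 25 tumours gave a Benjamini-Hochberg adjusted p under 0.05 over the 18031 genes, and every adjusted p given for a fold change is from that test unless another is named. The same test called 36.1% of all genes higher and 28.9% lower in responders than in controls, 22.2% higher and 19.6% lower in stable tumours, and 10.6% higher and 3.29% lower in non-responders. The median log2 fold change of the 10 genes was 0.72 in responders, 1.60 in stable tumours and 0.72 in non-responders, beside 0.16, 0.02 and 0.04 for all genes tested. Fitted on protein-coding genes only, the median of the responder comparison over the 14881 genes then tested was 0.04, so that both the genes and the scaling differ from the 0.16. Relative to the 0.16, Ctsb was at -1.18 and Ctss at 3.14. These 3 comparisons share the 5 control libraries.

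Between the outcomes under the same antibody, 6 of the 10 genes were lower in responders than in stable tumours (Ctsk, Ctsd, Ctsz, Ctsc, Lgmn and Ctsb), where 17.8% of all genes were called lower and 20.5% higher. Ctss, Ctsh, Ctsc and Ctsz rose in stable tumours against non-responders, where 7.08% of all genes were called higher and 7.86% lower. Ctsw alone passed the test between responders and non-responders, as higher, where 25.2% of all genes were called higher and 23.8% lower. The median log2 fold change of the 10 genes was -0.77 for responders against stable tumours, 0.89 for stable tumours against non-responders and 0.05 for responders against non-responders, beside 0.01, -0.02 and 0.05 for all genes tested. In fits of only the groups compared, Ctss, Ctsc and Ctsz missed the threshold between stable tumours and non-responders (adjusted p = 0.0567 to 0.0610), as did Ctss, Ctsc and Ctsh between non-responders and controls (adjusted p = 0.0533 to 0.0723), Ctsd between responders and stable tumours (adjusted p = 0.0535), Ctsk between responders and controls (0.83, adjusted p = 0.0671) and Ctsw between responders and non-responders (adjusted p = 0.0609). When each library's protein-coding share entered the fit as a covariate, edgeR called 0 of the 10 genes between responders and stable tumours, and 0 of them had an unadjusted p under 0.05. It then called 0 of 18031 genes in that comparison, with 2296 at an unadjusted p under 0.05, while DESeq2 without the covariate called 6 of the 10 and 7355 genes in all.

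**Figure D2:**
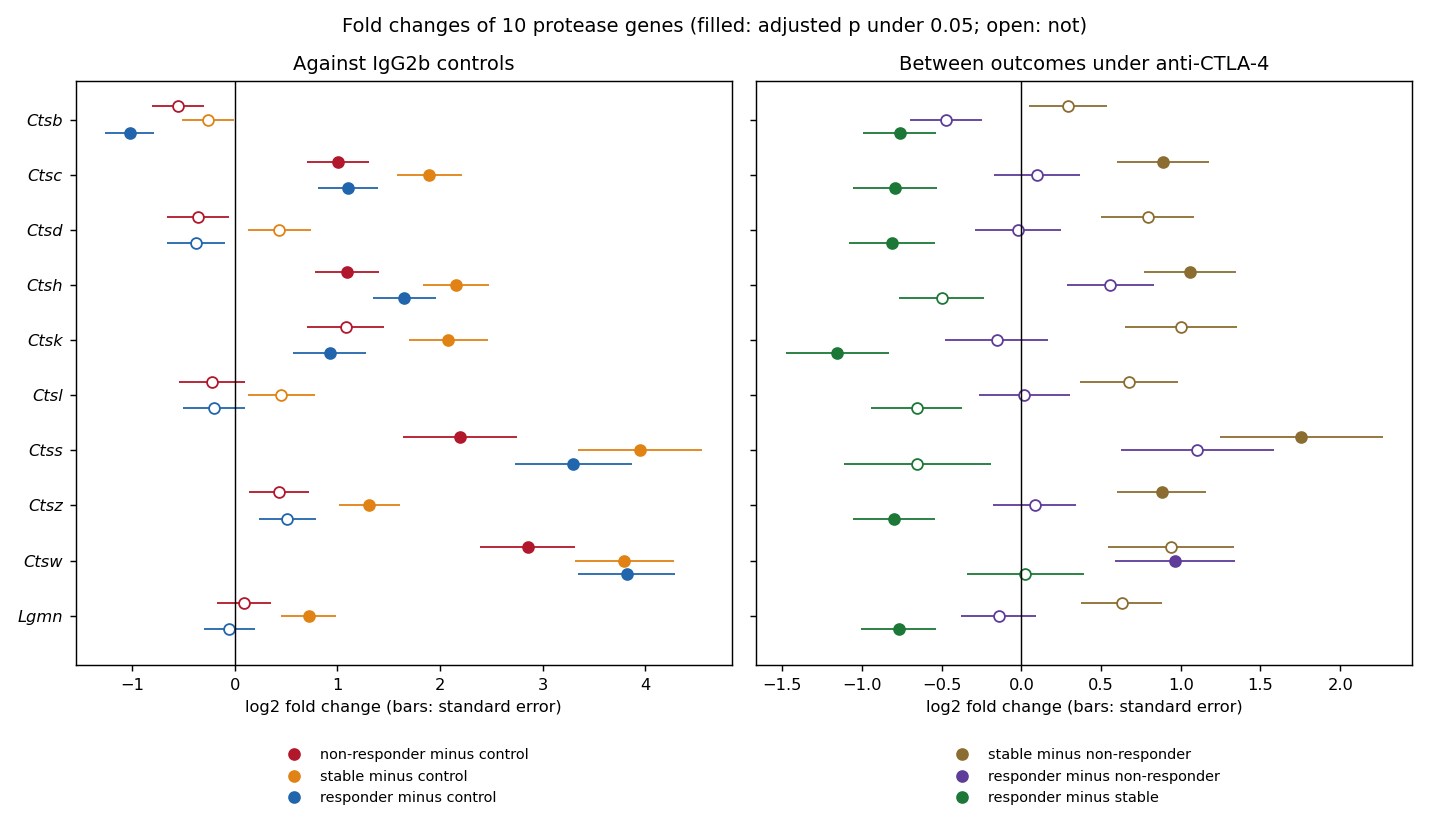
Log2 fold changes of the 10 genes (points) with standard errors (bars), against controls on the left and between outcomes on the right, filled where the adjusted p is under 0.05. Ctss and Ctsw lie furthest right against controls in all 3 outcome groups, Ctsb lies at -1.02 in responders, and 9 of the 10 points of responders against stable tumours lie below 0.

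Ctss encodes cathepsin S, the endopeptidase that makes the late cut of the invariant chain in antigen-presenting cells and that stays active at neutral pH. Its gene (ENSMUSG00000038642.10) lies on the forward strand of chromosome 3 at chr3:95526786-95556403 (GRCm38), and the pseudogene Hmgb1-ps5 lies within it on the same strand. Controls 1 to 5 had 124, 130, 111, 116 and 247 CPM. The non-responders ranged from 168 to 2066 CPM with a median of 398, the stable tumours from 1382 to 3498 with a median of 1986, and the responders from 578 to 2509 with a median of 1219. Every responder and every stable tumour was above every control, and the non-responders overlapped both the controls and the stable tumours. For the 10 genes, Ctss included, 5 did not overlap between responders and controls, where 30.0% of all genes did not, and 6 did not overlap between stable tumours and controls, where the share was 35.5%. None of the 10 was free of overlap between non-responders and controls (4.08% of all genes were), between responders and non-responders (5.01%), between stable tumours and non-responders (5.01%) or between responders and stable tumours (0.715%).

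The log2 fold change of Ctss against controls was 3.30 (SE 0.57, adjusted p = 3.18e-05) in responders, 3.95 (SE 0.60, adjusted p = 1.49e-05) in stable tumours and 2.19 (SE 0.55, adjusted p = 0.00933) in non-responders. The non-responder value was 1.41 (SE 0.45, adjusted p = 0.0460) without non-responder 6, the tumour at 2066 CPM. Stable tumours exceeded non-responders by 1.76 (SE 0.51, adjusted p = 0.0238), or by 2.54 (SE 0.46, adjusted p = 0.000535) without that tumour. This call was lost without non-responder 1, 2 or 3 or stable tumour 3, at 1.55 to 1.62 (adjusted p = 0.0557 to 0.0620). Responders against non-responders gave 1.10 (SE 0.48, adjusted p = 0.0584), which missed the threshold and became 1.89 (SE 0.43, adjusted p = 0.00144) without non-responder 6. Responders and stable tumours differed by -0.65 (SE 0.46, adjusted p = 0.266).

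**Figure D3:**
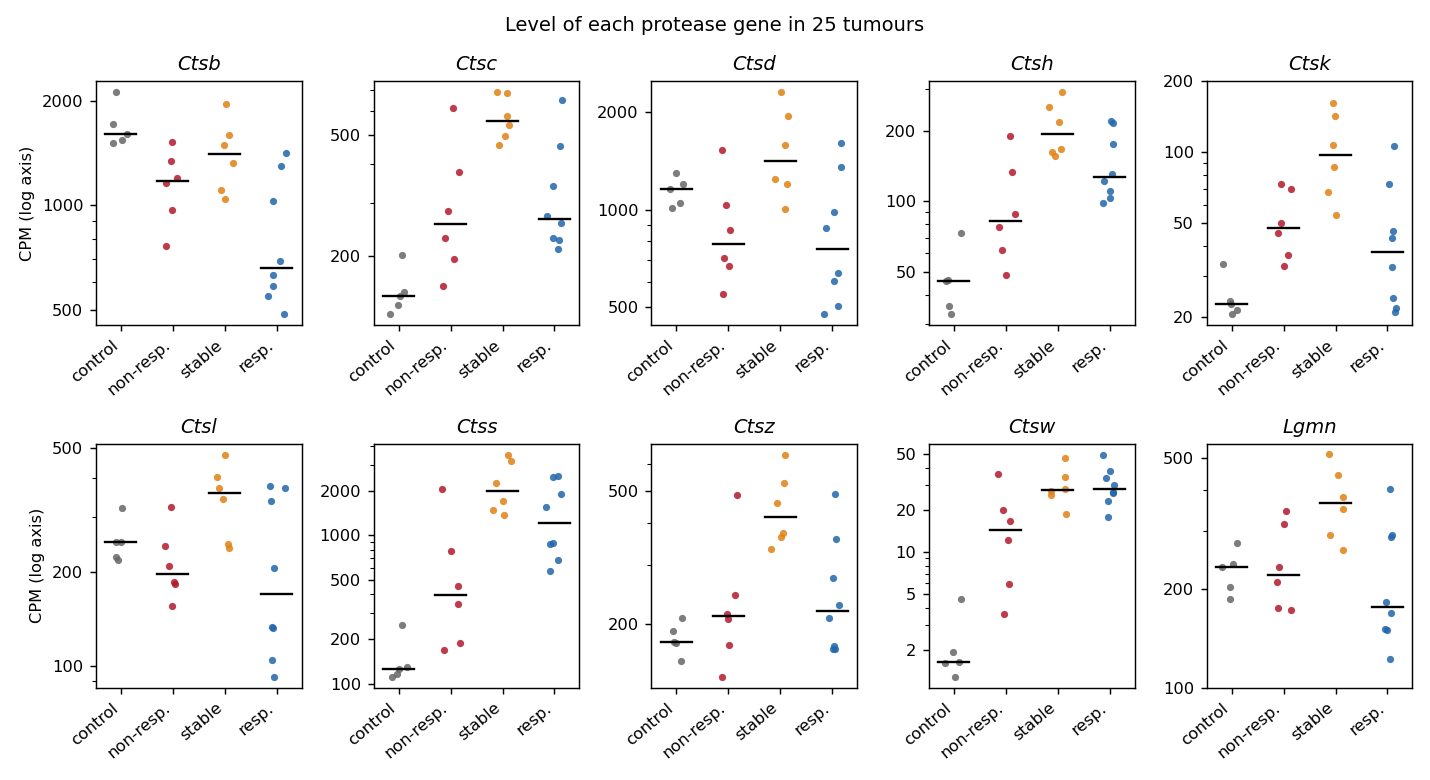
CPM of each of the 10 genes in each tumour (points) on a log axis, with the group's median as a bar, for 5 controls, 6 non-responders, 6 stable tumours and 8 responders. All 6 stable tumours lie above all 5 controls for Ctsc, Ctsh, Ctsk, Ctss, Ctsz and Ctsw, and all 8 responders lie below all controls for Ctsb.

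Ctsh and Ctsc are the aminopeptidases of the set. Ctsh (ENSMUSG00000032359.14, chr9:90054152-90076089, forward strand) encodes cathepsin H, which trims residues from the N-terminus of peptides. Controls had 33.2, 45.6, 46.3, 35.9 and 73.2 CPM. Non-responders ranged from 48.6 to 190 CPM, stable tumours from 156 to 292 and responders from 98.2 to 221. All 8 responders and all 6 stable tumours were above every control. The rise was 1.65 (SE 0.30, adjusted p = 6.06e-05) on the log2 scale in responders, 2.15 (SE 0.32, adjusted p = 1.13e-05) in stable tumours and 1.10 (SE 0.31, adjusted p = 0.0189) in non-responders. The non-responder call was lost without control 1 or 4 or non-responder 4 or 6, at 0.81 to 1.01 (adjusted p = 0.0514 to 0.0687). Stable tumours were also above non-responders, by 1.06 (SE 0.29, adjusted p = 0.0173), but at 0.94 to 0.95 (adjusted p = 0.0516 to 0.0529) without non-responder 2 or stable tumour 3. Neither the responders' difference from stable tumours (-0.50, adjusted p = 0.140) nor that from non-responders (0.56, adjusted p = 0.0910) passed the test. The latter was 0.85 (adjusted p = 0.0113) without non-responder 6, and it was also called with the stricter filter (0.64, adjusted p = 0.0462) and by limma (0.66, adjusted p = 0.0381).

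Ctsc (ENSMUSG00000030560.17, chr7:88278085-88310888, forward strand) encodes cathepsin C, also called dipeptidyl peptidase I, which activates granzymes and other granule serine proteases. The lincRNA gene Gm26522 overlaps it on the opposite strand. Controls had 149, 139, 152, 130 and 201 CPM. Non-responders ranged from 160 to 610 CPM with a median of 256, stable tumours from 464 to 690 with a median of 556, and responders from 211 to 652 with a median of 265. Again no responder and no stable tumour overlapped the controls. The log2 fold change was 1.10 (SE 0.29, adjusted p = 0.00220) in responders, 1.90 (SE 0.32, adjusted p = 3.74e-05) in stable tumours and 1.01 (SE 0.31, adjusted p = 0.0288) in non-responders. Responders were below stable tumours by a log2 difference of -0.79 (SE 0.27, adjusted p = 0.0230), and stable tumours were above non-responders by 0.89 (SE 0.29, adjusted p = 0.0388). The call in non-responders was lost without control 1, 2, 3 or 4 or non-responder 4 or 6, at 0.69 to 1.00 (adjusted p = 0.0564 to 0.108). That against stable tumours was lost without stable tumour 4 (-0.73, adjusted p = 0.0533), and that of stable tumours against non-responders without non-responder 1, 2, 3 or 5 or stable tumour 2, 3, 4 or 5, at 0.76 to 0.91 (adjusted p = 0.0501 to 0.101).

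Of the granule serine proteases that cathepsin C activates, 10 of a list of 12 were tested, and 8 rose in each outcome group against controls. Gzmg, a granzyme, was at 0 in all 5 controls and averaged 1.98 ± 1.69 CPM in responders (SD, n = 8), while it ranged from 0.883 to 5.35 CPM in stable tumours and from 0 to 4.74 CPM in non-responders. Against controls, 2 of the 10 fell in responders, 1 in stable tumours and 0 in non-responders. Over all genes, 36.1% rose and 28.9% fell in responders, 22.2% and 19.6% in stable tumours, and 10.6% and 3.29% in non-responders. Cma1, a mast cell chymase, fell by 1.95 (SE 0.37, adjusted p = 8.29e-05) in responders and by 1.08 (SE 0.39, adjusted p = 0.0285) in stable tumours. It was lower in responders than in non-responders by a log2 difference of -2.57 (SE 0.36, adjusted p = 3.11e-05) and Mcpt4, another, by -2.37 (SE 0.38, adjusted p = 9.42e-05).

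Ctsw encodes cathepsin W, which is expressed mainly in cytotoxic T cells and natural killer (NK) cells. Its gene (ENSMUSG00000024910.5) lies on the reverse strand at chr19:5465043-5468507 and overlaps Fibp on the opposite strand. Whether the counting used strand is not given in the sources used here, so reads of Ctsw and Fibp may not have been separated. Controls had 1.63, 1.92, 1.60, 1.29 and 4.60 CPM. Non-responders spanned 3.61 to 36.0 CPM, stable tumours 18.8 to 47.1 and responders 17.8 to 49.6, so that stable tumours and responders covered nearly the same range. Ctsw had the largest log2 fold change of the 10 genes in responders, 3.82 (SE 0.47, adjusted p = 6.51e-07), beside 3.30 (SE 0.57) for Ctss. This rank depended on the fit. Over the alternatives other than leave-outs, the lowest responder value was 2.92 for Ctsw and 3.14 for Ctss. The log2 fold change of Ctsw was 3.79 (SE 0.48, adjusted p = 2.08e-06) in stable tumours and 2.85 (SE 0.46, adjusted p = 0.000490) in non-responders.

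Responders and stable tumours differed in Ctsw by 0.03 (SE 0.37, adjusted p = 0.963). Responders exceeded non-responders by 0.96 (SE 0.38, adjusted p = 0.0377), with 2 of 8 responders above every non-responder. This call was lost without non-responder 1, 2, 3 or 5 or responder 2, 5 or 6, at 0.76 to 0.98 (adjusted p = 0.0510 to 0.0878). Fitted beside the protein-coding share, the difference was 1.17 (SE 0.46, adjusted p = 0.0922). Stable tumours against non-responders gave 0.94 (SE 0.40, adjusted p = 0.113), or 1.37 (adjusted p = 0.0108) without non-responder 6. Against controls, 36.1% of all genes rose in responders, 22.2% in stable tumours and 10.6% in non-responders. All 10 markers of T and NK cells rose in each outcome group against controls. Their summed level was 11.1 to 31.3 CPM in controls, 104 to 277 CPM in responders, 168 to 262 CPM in stable tumours and 22.4 to 229 CPM in non-responders, with none of the 10 at 0 in any tumour. The part of these cells in the Ctsw result was not tested.

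Ctsk encodes cathepsin K, the collagen-cutting cathepsin best known from osteoclasts and also made by fibroblasts and some macrophages. It is the neighbour of Ctss: its gene (ENSMUSG00000028111.4) lies on the same strand at chr3:95499256-95509362, with 17423 bp and no annotated gene between them. Controls had 22.8, 20.6, 21.4, 23.5 and 33.7 CPM. Non-responders ranged from 32.9 to 73.4 CPM, stable tumours from 53.9 to 161 and responders from 21.0 to 106. All 6 stable tumours were above the controls, while 4 of 8 responders lay within the controls' range. Ctsk rose by 2.08 (SE 0.39, adjusted p = 0.000122) in stable tumours and by 0.93 (SE 0.35, adjusted p = 0.0253) in responders, the latter becoming 0.63 (SE 0.31, adjusted p = 0.0763) without responder 5. It also missed the threshold without responder 2 or any of controls 1 to 4, with an adjusted p of at least 0.0503. Non-responders were at 1.08 (SE 0.37, adjusted p = 0.0540), with 5 of 6 above every control. The test passed in 6 of the leave-outs of a tumour (adjusted p = 0.0235 to 0.0487) and in 5 other alternatives (adjusted p = 0.0148 to 0.0475): DESeq2, the stricter filter, only the groups compared, protein-coding genes only and the protein-coding share. Stable tumours against non-responders gave 1.00 (SE 0.35, adjusted p = 0.0542), which passed in 8 leave-outs (adjusted p = 0.0252 to 0.0492) and in the same 5 alternatives (adjusted p = 0.0219 to 0.0469). Responders were below stable tumours by -1.16 (SE 0.32, adjusted p = 0.00968), the largest of the 10 differences in that comparison.

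Both promoters are shown because the proportion of these neighbouring genes differed between groups, as given next. They are RefSeq windows of 250 bases before to 50 after the annotated start (GRCm38.p6, both forward strand, at chr3:95526536-95526835 for Ctss and chr3:95498960-95499259 for Ctsk), and capitals mark matches to 4 motifs searched on both strands.
Ctss: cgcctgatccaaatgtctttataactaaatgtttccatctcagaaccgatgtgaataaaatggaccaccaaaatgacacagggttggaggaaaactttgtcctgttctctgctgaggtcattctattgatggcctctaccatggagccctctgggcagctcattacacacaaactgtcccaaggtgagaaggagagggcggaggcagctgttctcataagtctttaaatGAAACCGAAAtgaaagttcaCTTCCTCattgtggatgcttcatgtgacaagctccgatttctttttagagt
Ctsk: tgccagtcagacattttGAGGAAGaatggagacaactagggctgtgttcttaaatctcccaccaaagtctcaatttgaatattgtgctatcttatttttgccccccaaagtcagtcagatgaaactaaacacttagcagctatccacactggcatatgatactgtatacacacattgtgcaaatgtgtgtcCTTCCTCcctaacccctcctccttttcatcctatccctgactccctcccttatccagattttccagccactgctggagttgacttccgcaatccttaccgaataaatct
The motifs were GAAA repeated after any 2 bases (the core of the interferon-stimulated response element), TTCNNNGAA (the gamma-activated site), GAGGAAG (a PU.1-type ETS site) and CACGTG (an E-box). The Ctss window holds GAAACCGAAA beginning 21 bases before the start and CTTCCTC, the reverse complement of GAGGAAG, beginning 1 base before it. The Ctsk window holds GAGGAAG at 233 bases and CTTCCTC at 59 bases before the start, and no such GAAA repeat. Of 32851 promoter windows of the same length, 3.44% hold the GAAA repeat, 8.30% TTCNNNGAA, 13.6% GAGGAAG and 7.15% CACGTG. A match describes the letters only.

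The log2 ratio of Ctss to Ctsk CPM within a tumour was 2.53 ± 0.230 in controls (SD, n = 5), 4.98 ± 0.826 in responders (SD, n = 8), 4.46 ± 0.470 in stable tumours (SD, n = 6) and 3.18 ± 1.03 in non-responders (SD, n = 6). As a plain ratio it was 4.95 to 7.31 in controls and 12.4 to 73.4 in responders. All 8 responders and all 6 stable tumours were above every control. In two-sided exact permutation tests, adjusted over the 6 comparisons, the ratio exceeded controls by 2.45 in responders (exact p = 0.000777, adjusted p = 0.00466) and by 1.93 in stable tumours (exact p = 0.00216, adjusted p = 0.00649), each the smallest p the design allows. Responders exceeded non-responders by 1.80 (exact p = 0.00566, adjusted p = 0.0113), with 4 of 8 above every non-responder. Stable tumours exceeded non-responders by 1.28 (exact p = 0.0216, adjusted p = 0.0325), a call lost in 8 of the leave-outs of a tumour. Responders and stable tumours differed by 0.52 (exact p = 0.195, adjusted p = 0.201), and non-responders and controls by 0.65 (exact p = 0.201, adjusted p = 0.201). The last difference was 0.31 without non-responder 6, whose ratio of 29.5 lay above the 4.08 to 10.7 of the other 5.

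Ctsb, which encodes cathepsin B, an endopeptidase and carboxypeptidase abundant in many tumours, was the member that fell. Its gene (ENSMUSG00000021939.8) lies on the forward strand at chr14:63122462-63145923 and overlaps Fdft1 on the opposite strand. Controls had 1511, 2117, 1601, 1539 and 1714 CPM. Non-responders ranged from 764 to 1523 CPM, stable tumours from 1045 to 1958, and responders from 487 to 1414 with a median of 661. All 8 responders were below all 5 controls. Responders were below controls by a log2 difference of -1.02 (SE 0.24, adjusted p = 0.000672) and below stable tumours by -0.76 (SE 0.23, adjusted p = 0.0130). Stable tumours (-0.26, adjusted p = 0.451) and non-responders (-0.55, adjusted p = 0.157) did not differ from controls by the test. Both leaned the same way, with 4 of 6 stable tumours and 5 of 6 non-responders below every control. Responders against non-responders gave -0.47 (SE 0.23, adjusted p = 0.0870). It was called by limma. The call was also made without non-responder 5 or responder 2 or 5, at -0.62 to -0.57 (adjusted p = 0.0168 to 0.0475).

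Within the responders, Ctsb was highest in responders 5, 2 and 3, at 1414, 1302 and 1026 CPM, and 487 to 692 CPM in the other 5. These 3 tumours also had the highest protein-coding shares of the responders, 87.0%, 72.7% and 74.3%. They held the highest 3 values for 8 of the 10 genes, all but Ctsk and Ctsw. Fitted beside the share, Ctsb in responders against controls was -0.67 (SE 0.27, adjusted p = 0.0504). With responder 5 as the sole responder it was -0.30 (SE 0.34, adjusted p = 0.587), a fit in which that tumour is assumed to vary like the other groups.

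Ctsd, Ctsl, Ctsz and Lgmn, with Ctsb, were the members whose levels in controls were highest after Ctss was set aside. Ctsd (ENSMUSG00000007891.16, chr7:142375911-142388038, reverse strand) encodes cathepsin D, the main aspartic protease of the lysosome, and shares its locus with Gm49369 on the same strand, so that reads could be split between them. Controls had 1299, 1158, 1049, 1016 and 1201 CPM, non-responders 548 to 1528, stable tumours 1004 to 2307 and responders 477 to 1610. Its level did not differ from controls by the test in responders (-0.38, adjusted p = 0.248), stable tumours (0.43, adjusted p = 0.269) or non-responders (-0.36, adjusted p = 0.454). Stable tumours against non-responders gave 0.79 (SE 0.29, adjusted p = 0.0676). It was called by DESeq2, with the stricter filter and by limma. The call was also made without non-responder 6, stable tumour 1 or responder 5, at 0.79 to 1.02 (adjusted p = 0.0139 to 0.0498). Responders were below stable tumours by -0.81 (SE 0.27, adjusted p = 0.0217), or by -0.66 (adjusted p = 0.0665) without stable tumour 3 and -0.73 (adjusted p = 0.0547) without stable tumour 4. Its promoter is shown because it carries E-box letters, which the shown Ctss and Ctsk windows lack (GRCm38.p6, reverse strand, chr7:142387778-142388077).
Ctsd: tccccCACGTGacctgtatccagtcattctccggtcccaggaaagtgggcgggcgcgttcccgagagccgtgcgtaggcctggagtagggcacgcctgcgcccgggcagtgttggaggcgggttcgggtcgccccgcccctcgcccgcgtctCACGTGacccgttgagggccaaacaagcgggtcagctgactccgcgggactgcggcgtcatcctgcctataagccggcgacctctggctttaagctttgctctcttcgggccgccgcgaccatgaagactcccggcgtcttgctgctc
CACGTG begins 245 and 98 bases before the start of Ctsd. Of the other members with a promoter entry, 7 of 10 genes in all, Ctsl has it at 236 bases and Lgmn at 49 bases before 1 of its 2 listed starts.

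Ctsz (ENSMUSG00000016256.10, chr2:174427493-174439039, reverse strand) encodes cathepsin Z, a carboxypeptidase, and overlaps Nelfcd on the opposite strand. Controls had 190, 176, 155, 175 and 209 CPM, stable tumours 335 to 640, non-responders 139 to 486 and responders 168 to 489. All 6 stable tumours were above every control, and Ctsz rose there by 1.31 (SE 0.30, adjusted p = 0.000970). It was above non-responders by 0.88 (SE 0.28, adjusted p = 0.0347), and responders were below stable tumours by -0.80 (SE 0.26, adjusted p = 0.0189). The last call was lost without stable tumour 3 (-0.67, adjusted p = 0.0547), and the one before it without any of non-responders 1 to 5 or of stable tumours 2 to 4, at 0.75 to 0.88 (adjusted p = 0.0509 to 0.0979). Responders against controls gave 0.51 (SE 0.28, adjusted p = 0.107). Without non-responder 6, the highest of its group, the adjusted p of stable tumours against non-responders was 0.00159.

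Lgmn (ENSMUSG00000021190.14, chr12:102394084-102439813, reverse strand) encodes legumain. Controls had 233, 275, 202, 186 and 238 CPM, non-responders 173 to 345, stable tumours 263 to 513 and responders 122 to 400. In stable tumours 5 of 6 were above every control, and the rise was 0.72 (SE 0.27, adjusted p = 0.0328). Without control 1, 3, 4 or 5 or stable tumour 3 or 4 it was 0.61 to 0.74 (adjusted p = 0.0526 to 0.0835). Responders were below stable tumours by -0.77 (SE 0.23, adjusted p = 0.0144) and did not differ from controls by the test (-0.05, SE 0.25, adjusted p = 0.867).

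Ctsl (ENSMUSG00000021477.9, chr13:64359337-64370890, reverse strand) encodes cathepsin L, an endopeptidase that takes the place of cathepsin S in the thymic epithelium. It overlaps the antisense gene Gm47123 and the pseudogene Gm49230. Controls had 251, 250, 220, 223 and 320 CPM, non-responders 156 to 324, stable tumours 239 to 475 and responders 92.8 to 376. Ctsl passed the test in none of the 6 comparisons, with an adjusted p of 0.0687 at its nearest, for responders against stable tumours (-0.66, SE 0.28). That difference was called without responder 2, 3 or 5, at -0.77 to -0.81 (adjusted p = 0.0197 to 0.0385). Stable tumours against controls gave 0.46 (SE 0.32, adjusted p = 0.271), which passed only in the fit of the groups compared (adjusted p = 0.0455).

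The enzymes that work beside the cathepsins showed a like direction between responders and stable tumours. Of 29 lysosomal hydrolases, 20 were lower in responders than in stable tumours and 0 higher, with a median log2 fold change of -0.60. In this comparison 17.8% of all genes were called lower and 20.5% higher. Asah1, acid ceramidase, was lower by -0.87 (SE 0.25, adjusted p = 0.0106). Of 18 genes of the lysosomal membrane and proton pump tested, of 19 listed, 10 were lower and 2 higher. Lamp1, the membrane glycoprotein of the lysosome, averaged 483 CPM in responders against 901 CPM in stable tumours (log2 difference -0.90, SE 0.22, adjusted p = 0.00514). Of 10 other lysosomal peptidases tested, of 11 listed, 6 were lower and 0 higher. As for the 10 genes, none of these calls held in the fit with the protein-coding share. That fit called 0 of 18031 genes in this comparison, so the loss is not particular to these lists.

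Against controls the lists held calls in both directions. In responders 6 of the 29 hydrolases rose and 10 fell, and in stable tumours 10 rose and 3 fell. Of all genes tested, 36.1% rose and 28.9% fell in responders, and 22.2% rose and 19.6% fell in stable tumours. Psap, the precursor of the saposins, rose by 1.17 (SE 0.31, adjusted p = 0.00211) in responders and 1.84 (SE 0.33, adjusted p = 8.98e-05) in stable tumours. Smpd1, acid sphingomyelinase, fell by 1.56 (SE 0.20, adjusted p = 1.00e-06) in responders and by 1.09 (SE 0.22, adjusted p = 0.000254) in stable tumours. Of the membrane and pump genes, 2 rose and 10 fell in responders, and 2 rose and 7 fell in stable tumours. Lamp1 was lower in responders (-0.93, SE 0.23, adjusted p = 0.00122) and at -0.03 (adjusted p = 0.948) in stable tumours.

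The tested inhibitors differed in direction. Of 9 cystatins and stefins in the list, 4 had enough counts to be tested, and the stefins not tested are near-identical copies that the counting could split. Cst3, cystatin C, was the most abundant of the tested inhibitors named here, with a mean of 399 CPM in controls, 923 CPM in stable tumours and 422 CPM in responders. The sum of the 9 was 1304 CPM in responder 5 and 245 to 498 CPM in the other responders, so responder 5 raises their Cst3 mean. Cst3 rose in stable tumours by 1.21 (SE 0.36, adjusted p = 0.00858), and responders were below stable tumours by -1.13 (SE 0.31, adjusted p = 0.00898). Cst7, cystatin F, an inhibitor made by immune cells that acts on cathepsin C, rose against controls by 3.23 (SE 0.60, adjusted p = 6.75e-05) in responders, 4.05 (SE 0.63, adjusted p = 1.83e-05) in stable tumours and 2.72 (SE 0.60, adjusted p = 0.00334) in non-responders. Cst6, cystatin E/M, fell by 1.90 (SE 0.60, adjusted p = 0.00841) in responders and by 3.18 (SE 0.69, adjusted p = 0.000621) in stable tumours.

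Genes of the MHC class II pathway, whose invariant chain cathepsin S cuts, rose in every outcome group against controls, 9 of 9 in each. The share over all genes was 36.1% in responders, 22.2% in stable tumours and 10.6% in non-responders. Cd74, the invariant chain itself, averaged 403 CPM in controls, 2783 CPM in responders, 4932 CPM in stable tumours and 2101 CPM in non-responders. The log2 fold change against controls was 2.79 (SE 0.45, adjusted p = 1.45e-05) in responders, 3.61 (SE 0.48, adjusted p = 3.28e-06) in stable tumours and 2.38 (SE 0.45, adjusted p = 0.00115) in non-responders. Between outcomes, 6 of 9 stood higher in stable tumours than non-responders, where 7.08% of all genes did. In responders 1 of 9 was lower than in stable tumours, where 17.8% of all genes were.

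Markers of cells that make these proteases moved beside them. Of 10 macrophage markers, 8 rose in responders, 9 in stable tumours and 7 in non-responders against controls, and between responders and stable tumours 8 were lower and 1 higher in responders. The shares of all genes that rose against controls were 36.1%, 22.2% and 10.6% in turn. Between responders and stable tumours 17.8% of all genes were lower and 20.5% higher in responders. The summed level of the markers was 626 to 1061 CPM in controls, 1059 to 3162 CPM in responders, 2285 to 3596 CPM in stable tumours and 831 to 2570 CPM in non-responders, and none was at 0 in any tumour. Responders 5, 2 and 3 were also the highest 3 responders for this sum. Csf1r, the receptor for the macrophage growth factor CSF1, rose by 1.76 (SE 0.30, adjusted p = 2.22e-05) in responders and 2.38 (SE 0.31, adjusted p = 2.98e-06) in stable tumours, and Adgre1, which encodes F4/80, was lower in responders than in stable tumours by -1.10 (SE 0.27, adjusted p = 0.00529).

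Dendritic cells and neutrophils also hold these enzymes. As above, the share of all genes that rose against controls was 36.1% in responders, 22.2% in stable tumours and 10.6% in non-responders. Of 8 dendritic cell markers, 7 rose in responders, 7 in stable tumours and 5 in non-responders against controls, with summed levels of 23.5 to 64.4 CPM in controls, 160 to 378 CPM in responders, 252 to 388 CPM in stable tumours and 48.0 to 338 CPM in non-responders. Of 6 neutrophil markers, 6 rose in responders, 4 in stable tumours and 1 in non-responders, with sums of 3.20 to 5.45, 30.7 to 72.3, 29.5 to 59.5 and 3.95 to 36.6 CPM for controls and those groups in turn. Of these, S100a8, S100a9, Cxcr2, Retnlg and Mmp8 were at 0 in at least 1 tumour, while no dendritic cell marker was at 0 in any.

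For Ctsk, fibroblast and osteoclast markers are the relevant lists. Beside them, 36.1% of all genes rose against controls in responders, 22.2% in stable tumours and 10.6% in non-responders. Of 8 fibroblast markers, 4 rose in responders, 6 in stable tumours and 5 in non-responders, with summed levels of 3385 to 6348 CPM in controls, 7095 to 16087 CPM in responders, 7617 to 15516 CPM in stable tumours and 6033 to 13881 CPM in non-responders, and none at 0 in any tumour. Of 6 osteoclast markers, 4 were tested, and Calcr, the calcitonin receptor, was at 0 in every control, stable tumour and responder. Acp5, a phosphatase that macrophages also express, rose against controls by 2.55 (SE 0.41, adjusted p = 1.26e-05) in responders and 3.06 (SE 0.43, adjusted p = 5.49e-06) in stable tumours. The summed osteoclast list was 21.0 to 32.3 CPM in controls, 92.0 to 129 CPM in responders, 99.5 to 134 CPM in stable tumours and 27.3 to 107 CPM in non-responders. The part of any of these cells in the protease results was not tested.

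**Figure D4:**
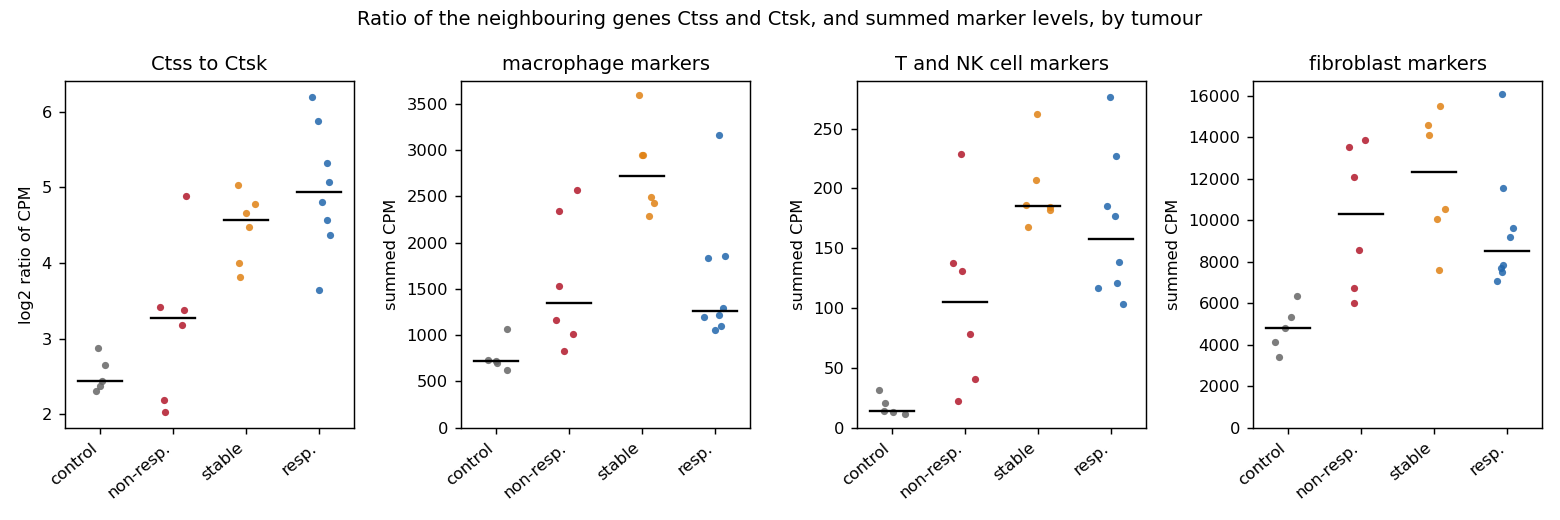
Log2 ratio of Ctss to Ctsk CPM, and summed CPM of 10 macrophage, 10 T and NK cell and 8 fibroblast markers, in each tumour (points) with the group's median as a bar. All responders and stable tumours lie above the controls for the ratio, and stable tumours have the highest median macrophage sum (2720 CPM against 1257 in responders, 1344 in non-responders and 723 in controls).

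The genes whose pattern over the 25 tumours was most like each protease were found by the smallest root mean square difference of centred log2 CPM among 13353 genes. These points share libraries, depth and groups, and likeness is given as a description. Ctss was nearest to Pla2g7 (0.278) and Lyz2 (0.296), against its own spread of 1.64, and Ctsw to Tbx21 (0.259) and Lck (0.282), against 1.62. Lyz2 encodes lysozyme of myeloid cells, Tbx21 the T-box factor T-bet of T and NK cells and Lck the kinase next to the T cell receptor. Ctsz had the smallest difference of the set, to Cyba (0.123), a subunit of the phagocyte oxidase, followed by Npc2 (0.140), a lysosomal cholesterol carrier. Its own spread was only 0.632, and the difference is not scaled by spread. Ctsb was nearest to Atp6v1a (0.191), a subunit of the lysosomal proton pump, and Eif3d (0.224), and Ctsd to Ftl1 (0.195), the ferritin light chain, and Scpep1 (0.207). Ctsc was nearest to Glipr2 (0.185) and Il13ra1 (0.185), Ctsh to Vsir (0.193) and Abcg1 (0.210), and Ctsk to Colec12 (0.240) and Ace (0.330). Ctsl was nearest to Tspo (0.200) and Capg (0.229), and Lgmn to Capg (0.181) and Tmem43 (0.193), so that Capg, an actin-capping protein, was named for both.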

How the data were processed

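RNA of 25 tumours was sequenced. The labels name a stranded total RNA kit and list polyA RNA as the molecule, a discrepancy not resolved here. Per the submitters' processing notes, bcl2fastq 2.17, Trimmomatic, STAR 2.5.1, RSEM 1.2.22 and mm10 were used, with roles not given there. The authors deposited a table of expected counts (estimated counts per gene, not normalized) for 55450 genes. Of the values 5.64% were fractional, and all were rounded. The authors also deposited RPKM values, with gene lengths and denominator not stated in the labels or headers. Gene identifiers all matched GENCODE M21 (GRCm38). Promoters came from the RefSeq table.

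Libraries held 8.76 to 34.3 M counts. No library duplicated another of its group, since replicates differed by a chi-square per gene of at least 17.1. The labels do not say how RNA samples were replicated beyond 1 per tumour, and p-values measure the spread between these tumours. In edgeR 4.0.16 (R 4.3.3), filterByExpr kept 18031 genes, and counts were scaled by TMM and fitted over 4 groups with robust quasi-likelihood tests, two-sided, at an adjusted p of 0.05. CPM uses the scaled library, and log2 CPM a prior count of 2. The fit was tested on simulated data. Alternatives were DESeq2 1.42.0, RLE factors, no filter, a stricter filter (at least 1 CPM in 8 tumours, mean count at least 50), only the groups compared, protein-coding genes only, the protein-coding share as a covariate, a 2-fold threshold, limma 3.58.1 on log2(RPKM + 1) and leaving out each tumour.

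The members and lists were chosen with earlier results of these data known. All 10 members were named, with at most 2 genes per list by largest and smallest called fold change, 9 fixed list genes and the 2 genes most like each member.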

Additional observations from a re-analysis of the deposited data

Results flagged for a closer look

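Among 44 groups of member levels and ratios checked, 5 held a tumour far from the others of its group, where chance gives about 1 in 20 groups. Control 5 was the high tumour for 3 genes: Ctsk at 33.7 CPM (others 20.6 to 23.5), Ctss at 247 CPM (others 111 to 130) and Ctsw at 4.60 CPM (others 1.29 to 1.92). It also had the highest summed macrophage markers of the controls, 1061 CPM. Without control 5, the log2 fold changes of Ctss, Ctsk and Ctsw in stable tumours were 4.22, 2.22 and 4.22, and those in responders 3.56, 1.06 and 4.24. Non-responder 6 was the high tumour of its group for Ctss at 2066 CPM (others 168 to 783) and Ctsz at 486 CPM (others 139 to 244), and its macrophage sum of 2570 CPM was the highest of the non-responders. Without it, 8 of the 10 genes were called between stable tumours and non-responders, against 4 with it. Over all genes, 3804 were called without it and 2693 with it.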

How the results depend on the processing

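Of 2070 recomputed fold changes of the 10 genes, 1861 kept direction and call, 102 lost the call, 52 gained it and 55 changed sign. Of those 55, 5 were called before and 50 were called neither before nor after. The 5 were in responders against stable tumours with responder 5 as the sole responder, an alternative chosen after seeing the data: Ctsc 0.19, Ctsd 0.057, Ctsk 0.041, Ctsz 0.12 and Lgmn 0.10. Of uncalled values, that fit also turned Ctsh (0.084), Ctsl (0.12) and Ctss (0.16) there, Ctsb (0.28), Ctsd (0.84), Ctsk (1.03) and Lgmn (0.72) against non-responders, and Ctsd (0.45), Ctsl (0.53) and Lgmn (0.78) against controls. Fitted beside the protein-coding share, Ctsd (0.24), Ctsk (0.45) and Lgmn (0.18) turned for responders against non-responders, and Ctsl (0.12) and Lgmn (0.30) against controls. For responders against non-responders, Ctsd also turned with the stricter filter (0.071), protein-coding genes only (0.022) and limma (0.062), and Ctsl with no filter (-0.055) and limma (-0.10). The stricter filter turned Lgmn for responders against controls (0.066), and no filter turned Lgmn for non-responders against controls (-0.0086) and Ctsw for responders against stable tumours (-0.010). Leaving out 1 tumour gave, for responders against non-responders, -0.12 to 0.41 for Ctsc, -0.20 to 0.20 for Ctsd, -0.14 to 0.17 for Ctsl and -0.11 to 0.40 for Ctsz, for Lgmn -0.23 to 0.042 in responders and -0.038 to 0.17 in non-responders against controls, and -0.11 to 0.20 for Ctsw in responders against stable tumours. With responder 5 as the sole responder edgeR called 2 genes between responders and non-responders (0 of the 10, with 8 at an unadjusted p under 0.05), 1 between responders and stable tumours (0 of the 10, with 0 unadjusted) and 3011 between responders and controls (6 of the 10). Beside the protein-coding share it called 1810 genes rather than 8823 (0 of the 10, 3 unadjusted) between responders and non-responders and 0 rather than 6891 genes (0 of the 10) between responders and stable tumours. Requiring a 2-fold change left 326 genes for responders against non-responders (0 of the 10), 0 for responders against stable tumours (1378 unadjusted; 0 of the 10), 24 for stable tumours against non-responders (0 of the 10), 3455 for responders against controls (3 of the 10), 2034 for stable tumours against controls (5 of the 10) and 210 for non-responders against controls (1 of the 10). Between responders and non-responders, 1 of the 10 and 8823 of 18031 genes were called. DESeq2 called 2 and 9409 of 18020, the stricter filter 3 and 6987 of 13173, and limma 4 and 7649 of 19518. The fits with no filter (8360 of 32985 genes) or only the groups compared (6708 of 16858) called 0 of the 10. Between stable tumours and non-responders, with 4 and 2693 genes called, no filter gave 1 (1906 genes) and only the groups compared 2 (2015 genes). For non-responders against controls, with 4 called, both gave 2. There no filter called 1934 genes and only the groups compared 1559, against 2500. The share of higher calls there was 76.3%, and 59.4% with limma. Leaving out 1 tumour gave 1470 to 3804 genes and 0 to 8 of the 10 for stable tumours against non-responders (0 without non-responder 2 or stable tumour 3). It gave 1570 to 4237 genes and 2 to 5 of the 10 for non-responders against controls. For responders against non-responders it gave 7255 to 10052 genes and 0 to 3 of the 10. The Ctss to Ctsk difference of stable tumours against non-responders ranged from 1.05 to 1.62. The cause of these changes was not tested. Ctss, Ctsh and Ctsw kept their calls in stable tumours and responders against controls under every alternative run. No paired analysis was possible because the labels give each tumour its own mouse number. The lowest count of the 10 genes was 41, and no depth-matched fit was run.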

Other observations

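Tfec and Mitf, both of the MiT/TFE family of transcription factors, which bind E-box letters in promoters of lysosomal genes, moved in opposite directions. Tfec averaged 2.13 CPM in controls, 15.2 CPM in responders, 16.7 CPM in stable tumours and 7.22 CPM in non-responders, and rose against controls by 2.85 (SE 0.36, adjusted p = 9.34e-07) in responders and 2.98 (SE 0.38, adjusted p = 1.93e-06) in stable tumours. Mitf, also the master regulator of melanocytes, averaged 453 CPM in controls, 81.2 CPM in responders, 89.8 CPM in stable tumours and 212 CPM in non-responders, and fell by 2.48 (SE 0.27, adjusted p = 2.07e-07) in responders and by 2.34 (SE 0.30, adjusted p = 2.46e-06) in stable tumours. Of the list of 10 genes of lysosomal sorting and regulation, 3 rose and 2 fell in responders against controls, and 5 rose and 2 fell in stable tumours. The shares over all genes were 36.1% higher and 28.9% lower in responders, and 22.2% higher and 19.6% lower in stable tumours.

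Napsa, which encodes the aspartic protease napsin A, rose against controls by 1.74 (SE 0.35, adjusted p = 0.000167) in responders, 2.54 (SE 0.37, adjusted p = 1.02e-05) in stable tumours and 1.37 (SE 0.36, adjusted p = 0.0120) in non-responders. Atp6v0d2, a proton pump subunit found in macrophages and osteoclasts, averaged 9.14 ± 3.06 CPM in controls (SD, n = 5), 50.7 ± 31.2 in responders (SD, n = 8), 87.5 ± 51.0 in stable tumours (SD, n = 6) and 15.1 ± 20.6 in non-responders (SD, n = 6), with stable tumours above non-responders by 2.52 (SE 0.61, adjusted p = 0.00925).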
